A study of Mus musculus with 9 samples.

Results

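C-type lectins and Siglecs are the surface receptors by which macrophages and microglia read sugars, and 10 of their genes were followed in BV2 cells exposed to silica-coated magnetic nanoparticles. BV2 is an immortalised mouse microglial cell line. MNPs@SiO2(RITC) particles have a cobalt ferrite core and a silica shell that carries the dye rhodamine B isothiocyanate. RNA-seq was performed on 9 libraries in 3 groups of 3, namely non-treated control cells, cells given 0.01 µg/µl (10 µg/ml) and cells given 0.1 µg/µl (100 µg/ml) of the particles, each exposure lasting 12 h. No group received another agent, and all libraries came from this 1 line, whose labels name no further allele or transgene. The genes were chosen by name, with the FPKM of all 9 libraries and earlier tests of them already known, so the comparisons between groups describe the chosen genes and are not independent evidence about them. The members are 7 C-type lectins (Clec4d, Clec4e, Clec4n, Clec7a, Clec5a, Clec12a and Clec4a2) and 3 Siglecs (Siglec1, Siglece and Siglech), 10 genes on 11 of the 40993 rows of the expression table. FPKM is a fragment count corrected for transcript length and library depth. Averaged across all libraries, 9 members reached 1 FPKM, and so did 11161 genes in all, which were the genes tested.

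C-type lectins bind sugars, glycolipids or crystals from microbes and from dead cells through a shared carbohydrate-recognition fold. Activating members signal through the kinase Syk and the adaptor Card9, either by way of the partner chains Fcer1g and Tyrobp or from a tyrosine motif of their own, whereas inhibitory members carry an ITIM, a short tyrosine motif that recruits the phosphatases encoded by Ptpn6 and Ptpn11. Siglecs bind sialic acid, the sugar that caps the glycans of host cells, and most of them also carry an ITIM.

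All 7 lectin genes lie on chromosome 6 in the coordinates of the table (GRCm38), and 4 of them lie close together. Clec4a2 (chr6:123106428-123143999), Clec4n (chr6:123229843-123247021) and Clec4d (chr6:123262107-123275268) are on the plus strand, with gaps of 85.8 and 15.1 kb, and Clec4e (chr6:123281789-123289870, minus strand) starts 6.52 kb further on. Clec12a (chr6:129342691-129365303, plus strand) and Clec7a (chr6:129461591-129472777, minus strand) are 96.3 kb apart, and Clec5a (chr6:40574894-40585821, minus strand) stands alone. Siglec1 is at chr2:131069220-131086765 on the minus strand, Siglece at chr7:43651070-43660161 on the minus strand and Siglech at chr7:55768178-55778925 on the plus strand. GENCODE M21 lists 9 of these genes as protein coding and Clec7a as a polymorphic pseudogene. The table holds a further Clec7a row, ENSMUSG00000102040, whose span on the same strand lies inside that of Clec7a, ENSMUSG00000079293.

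The 250 bases before the transcription start are printed for 6 members, 4 whose 100 µg/ml libraries lay below both other groups and 2 whose mean was higher at 100 µg/ml, since these are the genes on which the comparisons turn. Over all tested genes, the 100 µg/ml libraries lay below all control libraries in 11.4% and below all 10 µg/ml libraries in 9.99%. The share below both groups was not computed. RefSeq windows (GRCm38.p6) were found for 8 of the 10 members, and each sequence is written 5′ to 3′ on the strand of its gene. The transcription start is that of RefSeq. For Clec12a it lies well inside the span given above, so the Clec12a window is within the gene and not before its first base. The same holds for Clec4a2, whose window (chr6:123122440-123122689) is not printed. The Clec5a window overlaps its span by a few bases. Capitals mark GAGGAA, the core that PU.1 and other ETS factors read, on either strand (TTCCTC on the other), and in Clec12a also the palindrome TTGCGCAA, read by C/EBP factors, and TGANTCA, read by AP-1. The windows are Siglece chr7:43660162-43660411, Clec12a chr6:129349994-129350243, Clec7a chr6:129472780-129473029, Clec5a chr6:40585806-40586055, Clec4d chr6:123261857-123262106 and Clec4e chr6:123289872-123290121.
Siglece: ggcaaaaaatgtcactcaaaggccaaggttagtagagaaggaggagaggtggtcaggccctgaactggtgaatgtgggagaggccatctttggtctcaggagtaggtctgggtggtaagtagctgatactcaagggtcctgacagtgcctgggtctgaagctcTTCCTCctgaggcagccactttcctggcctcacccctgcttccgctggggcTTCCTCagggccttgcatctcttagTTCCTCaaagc
Clec12a: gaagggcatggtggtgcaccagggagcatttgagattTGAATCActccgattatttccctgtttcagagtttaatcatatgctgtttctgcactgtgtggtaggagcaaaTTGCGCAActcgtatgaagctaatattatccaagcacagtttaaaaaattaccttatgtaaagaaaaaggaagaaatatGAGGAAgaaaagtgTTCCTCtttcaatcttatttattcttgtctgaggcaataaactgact
Clec7a: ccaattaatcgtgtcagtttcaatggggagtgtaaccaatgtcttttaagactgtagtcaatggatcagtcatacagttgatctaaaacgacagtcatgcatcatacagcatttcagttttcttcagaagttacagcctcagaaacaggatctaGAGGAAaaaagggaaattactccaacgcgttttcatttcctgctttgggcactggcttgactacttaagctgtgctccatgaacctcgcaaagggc
Clec5a: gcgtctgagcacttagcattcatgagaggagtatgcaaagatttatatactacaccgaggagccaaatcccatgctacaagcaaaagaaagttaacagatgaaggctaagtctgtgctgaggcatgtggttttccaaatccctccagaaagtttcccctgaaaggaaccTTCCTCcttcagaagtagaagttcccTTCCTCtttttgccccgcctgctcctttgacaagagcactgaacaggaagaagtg
Clec4d: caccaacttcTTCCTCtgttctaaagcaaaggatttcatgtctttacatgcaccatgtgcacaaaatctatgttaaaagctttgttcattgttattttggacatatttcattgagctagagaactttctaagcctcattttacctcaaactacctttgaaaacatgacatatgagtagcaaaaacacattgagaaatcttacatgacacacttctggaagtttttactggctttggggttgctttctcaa
Clec4e: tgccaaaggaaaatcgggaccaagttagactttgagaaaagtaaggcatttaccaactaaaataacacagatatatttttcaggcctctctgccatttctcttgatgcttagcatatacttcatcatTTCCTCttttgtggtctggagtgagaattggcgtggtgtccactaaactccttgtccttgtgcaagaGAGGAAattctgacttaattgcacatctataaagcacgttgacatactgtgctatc

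GAGGAA was present in the windows of 6 of the 8 members, namely these 6, and in 23.3% of all 32851 RefSeq windows of that length. It stood in the 4 genes with lower 100 µg/ml libraries as well as in Clec4d and Clec4e. TTGCGCAA occurred in 0.164% of all windows and TGANTCA in 6.75%, and among the members each was found only in Clec12a, whose window lies inside the gene. The other motif searched, TCACGTGA, read by MiT/TFE factors, occurred in 0.785% of all windows and, among the members, in that of Siglech, a gene listed at 0. The motifs were picked after the sequences had been seen, and a match describes letters and not binding.

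In control cells the members spanned a wide range of levels. Clec4d was highest with 101 ± 8.97 FPKM (SD, n = 3), at the 92.3th percentile of the tested genes by its mean over all libraries. Clec7a (26.0 ± 2.15) and Clec5a (23.8 ± 0.698) followed, and their control libraries overlapped. Siglec1 (11.9 ± 1.01) and Clec4e (10.6 ± 0.723) overlapped too, and both lay below Clec5a in every control library. Clec12a (7.19 ± 1.14) and Clec4a2 (3.75 ± 0.713) came next, each apart from its neighbours in the order. Siglece (2.26 ± 0.344) and Clec4n (2.15 ± 0.345) were the lowest of the tested members and could not be ordered. Siglech, a receptor of plasmacytoid dendritic cells and microglia that couples to Tyrobp, was listed at 0 in all 9 libraries. The table alone does not tell a gene without transcripts from a failed estimate, and 22045 rows are listed at 0 throughout.

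**Figure D1:**
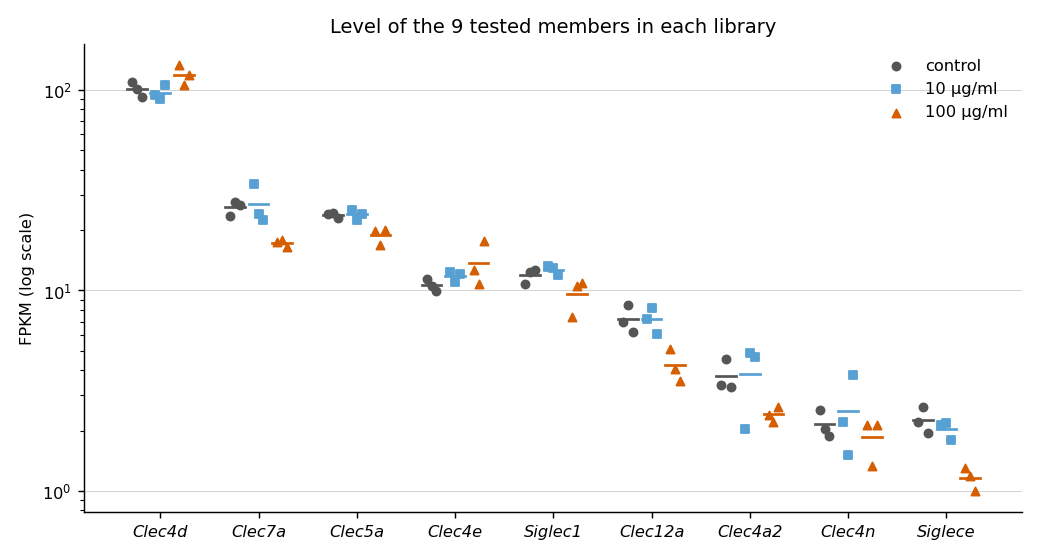
Level of the 9 tested members in FPKM (log axis) in each of the 9 libraries. Points are libraries, horizontal bars are group means, and genes are ordered by their mean over all libraries. The 100 µg/ml libraries (triangles) lie below all control and 10 µg/ml libraries for Clec7a, Clec5a, Clec12a and Siglece.

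The libraries carried a macrophage profile that lacked parts of the microglial one. Of 10 microglia and macrophage markers found in the table, 8 were tested, among them Cd68 (mean 421 FPKM in control cells) and Spi1, which encodes PU.1 (136 FPKM). The microglial marker Tmem119 was tested too, at a low mean of 2.24 FPKM in control cells. By contrast, P2ry12 and Cx3cr1, which define resting microglia, did not exceed 0.146 and 0.0773 FPKM in any library. None of 9 neuronal, astrocytic and oligodendrocytic markers reached a mean of 1 FPKM, and of 12 markers of lymphocytes, dendritic cells, neutrophils and fibroblasts only S100a8 did (15.5 to 32.6 FPKM), while its partner S100a9 was listed at 0. Deposited FPKM summed to between 473547 and 522812 per library, and the step size of low values gave an approximate depth of 13000000 to 16000000 fragments, the low values lying within 0.25 of a whole number of fragments in 67.8% to 76.6% of cases where an even spread gives 50%. By that estimate Siglece rested on about 53 fragments per control library and 28 per 100 µg/ml library, and Clec4n on 37 and 33, against 1616 and 1975 for Clec4d.

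The first comparison asked how the members differed between 100 µg/ml MNPs@SiO2(RITC)-treated cells and control cells. The 3 receptors with an ITIM had lower means, that of Siglece being 48.4% below control, and so had the activating receptors Clec7a and Clec5a. Lower means were also found for Siglec1 and for the activating, Fcer1g-coupled Clec4n, whose libraries overlapped those of control cells. The activating pair Clec4d and Clec4e had higher means with overlapping libraries. Of the 9 tested members, 7 had a log2 fold change below 0, against 50.4% of all tested genes, and the median was -0.32 against 0.00 for all genes. In the limma fit over all 11161 genes, with Benjamini-Hochberg adjustment over all of them, 1 member was lower at an adjusted p under 0.05 (background 1.41% of tested genes) and 0 were higher (background 0.708%). At an unadjusted p under 0.05, 5 members were lower (background 9.69%) and 1 was higher (background 9.67%). All 100 µg/ml libraries lay below all control libraries for 5 members, Siglece, Clec12a, Clec4a2, Clec7a and Clec5a (background 11.4%). They lay above all control libraries for none, and the share of all tested genes that did is not reported here. Because these are whole-culture libraries of cells, fewer cells expressing a receptor and less receptor RNA per cell cannot be told apart. Fold changes are differences of log2(FPKM + 1), a scale that understates the change of low genes.

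Siglece, an inhibitory Siglec of mouse myeloid cells, was the only member called. Its FPKM was 2.21, 2.63 and 1.94 in control cells, 2.12, 2.19 and 1.80 at 10 µg/ml and 1.31, 1.19 and 1.00 at 100 µg/ml. Every 100 µg/ml library was below every other library, while control and 10 µg/ml libraries overlapped. Siglece fell by 0.59 on the log2 scale (SE 0.12, limma adjusted p = 0.0480). That call rested on the full set of libraries, for without any 1 of them other than 100 µg/ml replicate 1 the adjusted p was between 0.0655 and 0.153, and without that replicate it was 0.0376. The log2 fold change lay between -0.90 and -0.51 under the 15 alternatives that gave one.

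Clec12a, an ITIM-bearing lectin that binds uric acid crystals, was measured at 6.94, 8.44 and 6.20 FPKM in control cells, 7.24, 8.20 and 6.10 at 10 µg/ml and 5.11, 4.07 and 3.54 at 100 µg/ml. The 100 µg/ml libraries again lay below all others, with a mean 41.0% under that of control cells. The log2 fold change was -0.65 (SE 0.15, 95% confidence interval -0.98 to -0.31), with a limma adjusted p of 0.0624. The paper, by its own analysis of this RNA-seq, also listed Clec12a as lower at 100 µg/ml and unchanged at 10 µg/ml. Of 16 alternatives 1 took it past the threshold, the omission of 100 µg/ml replicate 1 (adjusted p = 0.0326), and under the others the adjusted p reached 0.204. Clec4a2, the other inhibitory lectin, had 3.38, 4.57 and 3.29 FPKM in control cells, 2.03, 4.87 and 4.64 at 10 µg/ml and 2.39, 2.22 and 2.62 at 100 µg/ml. Its 100 µg/ml libraries were below the control libraries, but 10 µg/ml replicate 1 was lower than all of them. The interval of its log2 fold change, -1.01 to 0.07, included 0 (limma adjusted p = 0.325).

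Among the activating lectins, Clec7a (Dectin-1), the receptor for beta-glucans, had a lower level in every library at 100 µg/ml. It stood at 23.6, 27.7 and 26.6 FPKM in control cells, 33.9, 24.2 and 22.5 at 10 µg/ml and 17.4, 17.8 and 16.5 at 100 µg/ml. The 100 µg/ml libraries were close together and below all others, 33.5% under control in the mean. The log2 fold change was -0.56 (SE 0.14, limma adjusted p = 0.0727), and of 16 alternatives only the omission of 10 µg/ml replicate 1, the highest library, took it past the threshold (adjusted p = 0.0238), with values of up to 0.226 under the others. The overlapping row ENSMUSG00000102040 averaged 0.617, 0.213 and 0.252 FPKM in the 3 groups, below the filter, and with both rows summed Clec7a was 26.6 ± 2.27, 27.1 ± 5.96 and 17.5 ± 0.352 FPKM (SD, n = 3 each). Clec5a, a Tyrobp-coupled lectin, had 24.1, 24.3 and 23.0 FPKM in control cells, 25.3, 22.5 and 24.1 at 10 µg/ml and 19.7, 16.9 and 20.1 at 100 µg/ml. Here too the 100 µg/ml libraries were below all others, with a smaller difference and little spread. The log2 fold change of Clec5a was -0.32 (SE 0.07, limma adjusted p = 0.0678).

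Clec4d and Clec4e, adjacent genes whose products pair with Fcer1g and respond to mycobacterial glycolipids, did not share that pattern. Clec4d was measured at 110, 101 and 91.9 FPKM in control cells, 94.8, 90.2 and 106 at 10 µg/ml and 133, 106 and 118 at 100 µg/ml. The highest control library exceeded the lowest 100 µg/ml library, so the groups overlapped. Its log2 fold change was 0.23 (SE 0.10, limma unadjusted p = 0.0459, adjusted p = 0.250). Clec4e (Mincle) stood at 11.4, 10.53 and 9.94 FPKM in control cells, 12.4, 10.99 and 12.0 at 10 µg/ml and 12.7, 10.8 and 17.6 at 100 µg/ml. Its higher mean came mainly from 100 µg/ml replicate 3, and without that library the log2 fold change was 0.13 in place of 0.31. Clec4n (Dectin-2), which lies between Clec4a2 and Clec4d and binds mannans, had 2.54, 2.03 and 1.89 FPKM in control cells, 2.20, 1.52 and 3.77 at 10 µg/ml and 2.13, 1.34 and 2.14 at 100 µg/ml. The groups overlapped throughout, and the interval of its log2 fold change ran from -0.67 to 0.38.

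Siglec1 (sialoadhesin), a long adhesion receptor for sialylated surfaces that has no ITIM, gave 10.8, 12.4 and 12.6 FPKM in control cells, 13.2, 12.95 and 12.0 at 10 µg/ml and 7.35, 10.53 and 10.9 at 100 µg/ml. At 100 µg/ml replicate 3 was above the lowest control library, and replicate 1 was well below the other libraries of its group. The log2 fold change was -0.30 (SE 0.13, limma unadjusted p = 0.0485, adjusted p = 0.256), and -0.14 without replicate 1.

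**Figure D2:**
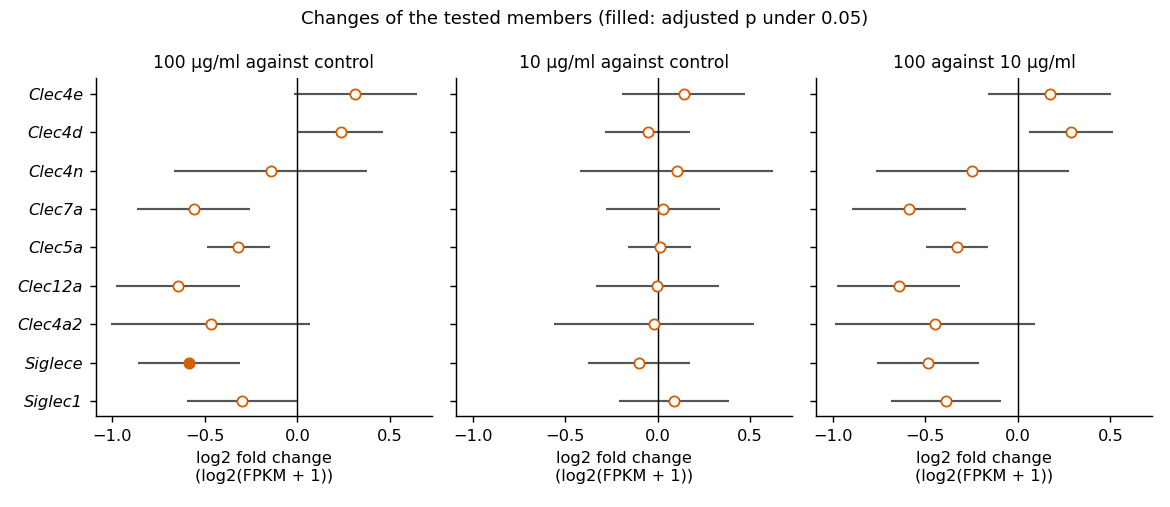
Log2 fold change of each tested member (points) with its 95% confidence interval (lines) in the 3 comparisons, on the log2(FPKM + 1) scale from limma. Filled points have an adjusted p under 0.05, which holds only for Siglece at 100 µg/ml against control. At 10 µg/ml every interval includes 0.

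At 10 µg/ml no member differed from control cells beyond the spread of the libraries. Of the tested members, 0 passed an adjusted p under 0.05 in limma (background 0%), 0 passed an unadjusted p under 0.05 (background 3.28%), and 0 had libraries that did not overlap (background 10.7%). The median log2 fold change was 0.01, with 4 of 9 members below 0. The values lay between -0.10 for Siglece and 0.14 for Clec4e, and their intervals differ much in width. That of Clec5a, -0.16 to 0.18, leaves room for small changes only, whereas that of Clec4a2, -0.56 to 0.52, would also hold changes of the size seen at 100 µg/ml.

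The 100 µg/ml libraries were also set against those at 10 µg/ml. The comparison shares its 100 µg/ml libraries with the one against control, so the 2 are not independent. No member was lower at an adjusted p under 0.05 (background 0.636%), while at an unadjusted p under 0.05 in limma 5 were lower (background 7.8%) and 1, Clec4d, was higher (background 6.49%). All 100 µg/ml libraries lay below all 10 µg/ml libraries for Siglece, Clec12a, Clec7a, Clec5a and Siglec1, 5 of 9 members (background 9.99%). The log2 fold changes were -0.65 for Clec12a, -0.59 for Clec7a, -0.49 for Siglece, -0.39 for Siglec1 and -0.33 for Clec5a, with limma adjusted p between 0.0954 and 0.231. Clec4d was 0.29 higher on that scale (limma adjusted p = 0.247).

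The relatives of the members were examined next, from a list of 59 other C-type lectin genes, of which 10 were tested. Of these, 2 were lower at 100 µg/ml at an adjusted p under 0.05 (1.41% of all tested genes were), and all 10 had a log2 fold change below 0 (50.4% of all tested genes had), with a median of -0.41. The 2 were Clec4a1 and Clec4a3, genes of the DCIR family that lie in the same stretch of chromosome 6 as Clec4a2. Clec4a1 had 15.3 ± 0.723 FPKM in control cells, 15.9 ± 1.16 at 10 µg/ml and 10.1 ± 0.695 at 100 µg/ml, which amounts to a log2 fold change of -0.56 (SE 0.07, limma adjusted p = 0.0096, n = 3 each). Without control replicate 2 its adjusted p was 0.0597. Clec4a3 had 13.3 ± 0.327, 12.4 ± 0.786 and 9.19 ± 1.22 FPKM in the same order, a log2 fold change of -0.50 (limma adjusted p = 0.0281), which passed the threshold without 100 µg/ml replicate 1 or 2 but not without any other library (adjusted p 0.0502 to 0.121). Reads shared among the similar Clec4a genes could have been divided between them, so their separate values are uncertain. The mannose receptor Mrc1 (log2 fold change -0.21), the scavenger receptor Colec12 (-0.03) and Cd302 (-0.33) did not pass. Of the other Siglecs, 6 were in the table and 2 were tested. Cd33, a close relative of Siglece, had 2.57 ± 0.442, 2.37 ± 0.641 and 1.18 ± 0.268 FPKM, a log2 fold change of -0.71 (limma adjusted p = 0.0695), and Cd22 one of -0.28.

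The partners through which the activating members signal were not called. Of 21 adaptors and kinases 19 were tested, and 0 passed an adjusted p under 0.05 in limma at 100 µg/ml (background 1.41% lower and 0.708% higher). At an unadjusted p under 0.05 in limma, 1 was lower (background 9.69%) and 1 higher (background 9.67%). The median log2 fold change was -0.10. Fcer1g, the signalling chain of Clec4d, Clec4e and Clec4n, had 251 ± 18.5, 224 ± 9.65 and 219 ± 39.3 FPKM in the same order of groups, and its log2 fold change was -0.21 (limma adjusted p = 0.364). Tyrobp, which serves Clec5a and Siglech, had 266 ± 46.4, 242 ± 26.7 and 231 ± 42.3 FPKM (log2 fold change -0.20). Both chains thus had higher means than each of the members that use them, on this per-length scale. Clec4d, the highest of these receptors, averaged 119 FPKM at 100 µg/ml against 219 for Fcer1g. The kinase Syk (log2 fold change -0.14), its relay Card9 (-0.13), the phospholipase Plcg2 (-0.08) and the exchange factor Vav1 (-0.11) did not pass the threshold either.

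Of the phosphatases that ITIM-bearing receptors recruit, Ptpn6 was lower at 100 µg/ml and Ptpn11 did not pass the test. Of 9 inhibitory phosphatases and related brakes, 8 were tested and 1 was called lower (background 1.41% of tested genes). This was Ptpn6 (SHP-1), at 133 ± 4.58 FPKM in control cells, 128 ± 7.39 at 10 µg/ml and 97.0 ± 2.19 at 100 µg/ml. Ptpn6 fell by 0.45 on the log2 scale (SE 0.06, limma adjusted p = 0.0096), and without control replicate 2 the adjusted p was 0.0561. Ptpn11, which encodes SHP-2, had a log2 fold change of -0.24 (limma adjusted p = 0.163), and Inpp5d, which encodes SHIP-1, one of -0.35 (limma adjusted p = 0.260). The ubiquitin ligase Cbl had one of -0.34 (limma adjusted p = 0.502). Dok1, an adaptor that dampens tyrosine kinase signals, was the only 1 of the 8 above 0, at 0.28 (limma adjusted p = 0.131), and is named after its value was seen.

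The genes that make or remove sialic acid, the ligand of Siglecs, had a median log2 fold change of 0.03, and of 29 listed genes 16 were tested. Of the 16, 1 was called lower (background 1.41% of tested genes). The 1 called was St6gal1, the enzyme that adds sialic acid in alpha-2,6 linkage, with 41.3 ± 1.14 FPKM in control cells, 28.9 ± 3.72 at 10 µg/ml and 21.8 ± 5.94 at 100 µg/ml. At the higher dose the log2 fold change of St6gal1 was -0.93 (SE 0.18, limma adjusted p = 0.0381), and its mean was also lower at 10 µg/ml, where the limma unadjusted p was 0.0211 and the adjusted p was 1. Without 100 µg/ml replicate 1 or 2 it kept its call at 100 µg/ml, and without any other library the adjusted p was between 0.0608 and 0.148. St6galnac4 had a log2 fold change of 0.23 (limma adjusted p = 0.0623), and the sialidase Neu1 and the synthesis genes Nans and Cmas lay between 0.03 and 0.12. Of 21 cytokine and effector genes that these receptors can induce, 8 were tested and 0 called (background 1.41% lower and 0.708% higher). The log2 fold changes were 0.08 for Tnf, 0.08 for Ccl3, 0.19 for Ccl4 and -0.08 for Ccl2. The other 13, among them Csf3, Cxcl2, Il1b and Il6, averaged under 1 FPKM, so a change in them was not tested. In its supplement the paper listed both Ccl2 and Csf3 as higher at 100 µg/ml, and its text reported Csf3 as upregulated. Csf3 averaged 0.313 FPKM in control cells and 0.777 at 100 µg/ml here, whereas the higher Ccl2 was not seen in the present fit.

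**Figure D3:**
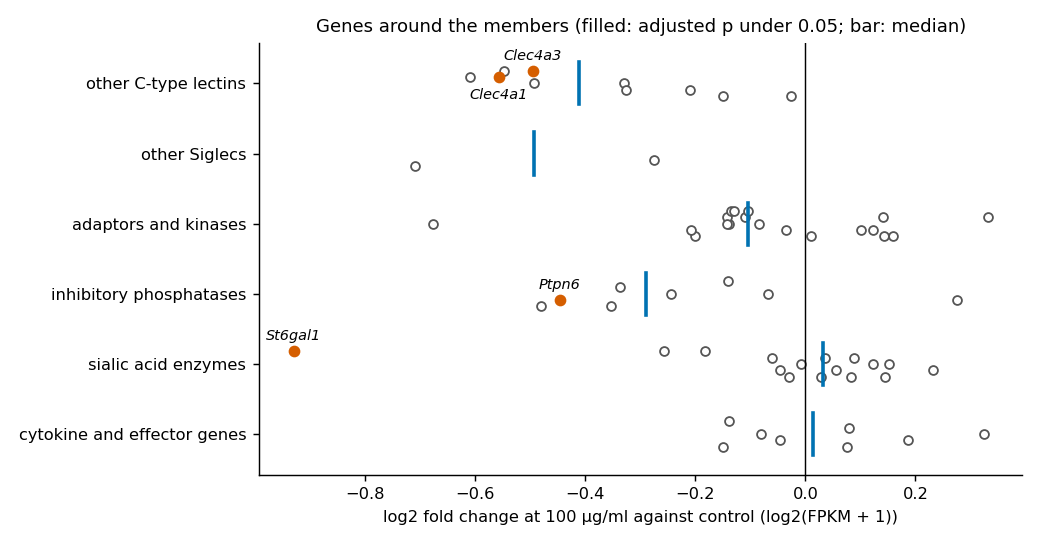
Log2 fold change at 100 µg/ml against control, on the log2(FPKM + 1) scale from limma, of the tested genes of the 6 surrounding lists. Each point is a gene, filled and named where its adjusted p was under 0.05, and the bar is the median of the list. Other C-type lectins and Siglecs all lie below 0, whereas sialic acid and cytokine genes lie on both sides.

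Macrophage markers were lower in the mean at 100 µg/ml as well, some of them only slightly. All 8 tested markers were below 0 on the log2 scale (50.4% of all tested genes were). Of the 8, 1 was called lower (background 1.41% of tested genes). Emr1, a receptor that defines mouse macrophages, had 202 ± 4.64 FPKM in control cells, 191 ± 1.96 at 10 µg/ml and 127 ± 8.89 at 100 µg/ml, and it fell by 0.67 on the log2 scale (SE 0.06, limma adjusted p = 0.0022). It was called under all 16 alternatives. The summed level of the 10 markers was 1006 to 1080 FPKM in control cells, 996 to 1045 at 10 µg/ml and 897 to 955 at 100 µg/ml, and the log2 fold changes of Spi1 and Cd68 were both -0.03. Aif1 encodes Iba1, a microglial marker whose protein staining in BV2 cells the paper reported to rise with dose. Aif1 RNA went the other way in the mean, with 6.54, 4.97 and 3.87 FPKM in the 3 groups. At 100 µg/ml it had a log2 fold change of -0.65 (limma unadjusted p = 0.0035, adjusted p = 0.0841). Csf1r, the receptor on which macrophages depend for survival, had one of -0.21 (limma unadjusted p = 0.0030, adjusted p = 0.0783). S100a8, at 15.5 to 32.6 FPKM, had a log2 fold change of -0.30 (limma adjusted p = 0.446) and was the 1 gene of its list that could be tested. The part of these markers in the receptor values was not tested.

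**Figure D4:**
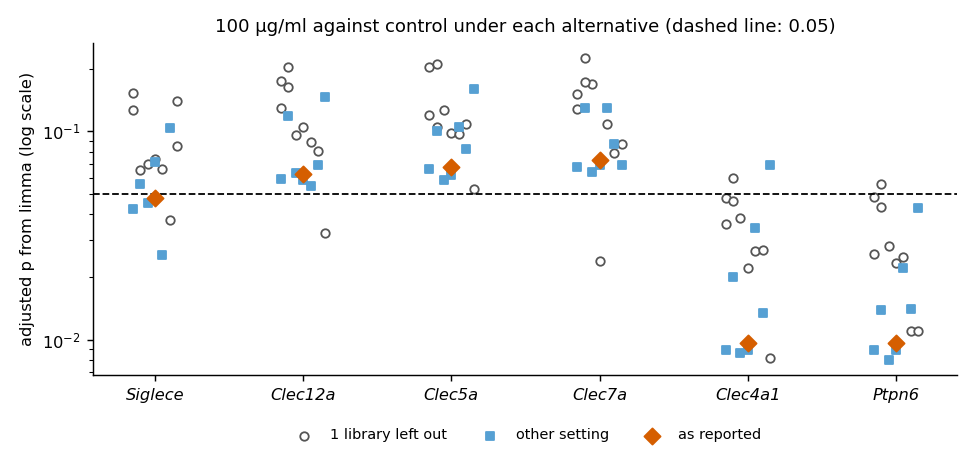
Limma adjusted p (log axis) at 100 µg/ml against control for 4 members and 2 related genes. Diamonds are the values reported, open circles those with 1 library left out and squares those under other settings, and the dashed line is 0.05. Siglece crosses the line in most alternatives, Clec5a stays above it in all, and Clec4a1 and Ptpn6 stay below it in 14 and 15 of 16.

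Profiles over the 9 libraries were also compared, with each gene centred and divided by its own SD, and the genes with the smallest root mean square difference are named as a description. The nearest gene to Clec12a was another member, Siglece (difference 0.217 SD units), ahead of Scamp2 (0.228), and the nearest to Siglece were Scamp2 (0.203) and Il10ra (0.215), a receptor chain for interleukin-10. Siglec1 was nearest to Man2a2 (0.149), a glycan-trimming mannosidase, and Lair1 (0.171), an ITIM-bearing collagen receptor. Clec4d was nearest to Ctsk (0.198) and Oas1a (0.262), Clec7a to Aqp9 (0.216) and Ahnak2 (0.225), and Clec5a to Ddit4 (0.253) and Rbm4 (0.256). Less close were the nearest genes of Clec4a2 (Arid5a, 0.300, and 6330418K02Rik, 0.388) and Clec4e (Nsun5, 0.379, and Zdhhc14, 0.426).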

How the data were processed

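RNA of BV2 cells was sequenced in 9 poly(A)-enriched TruSeq libraries. The authors filtered reads, aligned them with TopHat and estimated FPKM per Ensembl gene with Cufflinks 2.1.1, with correction for multiply mapping reads and fragment bias. The authors deposited 1 FPKM table with 3 columns per group, and 0 value columns were left unmapped. It holds no counts, so no count test was run, and the authors' Cuffdiff comparisons were not used. The labels do not say whether replicates were separate cultures, so p-values measure the spread between these libraries, which may be technical. Values were analysed as log2(FPKM + 1) for the 11161 genes that averaged 1 FPKM or more, with limma 3.58.1 (R 4.3.3), 3 groups in 1 fit, a mean-variance trend and Benjamini-Hochberg adjustment over all genes. The scripts were tested on simulated data. The members and all gene lists were chosen with earlier results of these data known. The text names every member, the called genes and the 4 highest tested genes of each surrounding list, 6 signalling genes and the 2 nearest profiles per member, except those of Clec4n, which are not reported here. Positions are those of the table. Of 40993 identifiers, 40036 were in GENCODE M21. Alternatives were another pseudocount, filter, scaling and variance model, a replicate block, a fit restricted to the 6 libraries of a comparison, and the omission of each library in turn.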

Additional observations from a re-analysis of the deposited data

Results flagged for a closer look

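For 3 genes around the members the effect of 100 µg/ml differed from that of 10 µg/ml, since the direct test of 100 against 10 µg/ml passed. They were picked by that test from the tested genes of all surrounding and marker lists. Over all tested genes, 0.636% were lower by it. Clec4a1, a DCIR relative in the same stretch of chromosome 6 as Clec4a2, was lower at 100 µg/ml with a log2 fold change of -0.61 (limma adjusted p = 0.0133). Ptpn6, the phosphatase bound by ITIM-bearing receptors, had one of -0.39 (limma adjusted p = 0.0223). Emr1, the macrophage surface receptor, had one of -0.59 (limma adjusted p = 0.0060). No member passed this test.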

How the results depend on the processing

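With 3 libraries per group and few fragments on Siglece, Clec4n and Clec4a2, calls near the threshold were unstable, and changes smaller than the intervals given were not detectable. The count of members called at 100 µg/ml against control was 1 as reported and also with a pseudocount of 0.1, with median-of-ratios rescaling and without the variance trend. It was 0 without the filter on low values, 0 with a filter at a mean of 5 FPKM (which drops Siglece, and with it Clec4a2 and Clec4n), 0 under the replicate block and 0 with only the 6 libraries compared, and 0 to 2 when 1 library was left out. Without the filter the adjustment ran over 18948 genes, and the fit of 6 libraries estimated the spread from fewer samples. For the other changes the cause was not tested. No member was called at 10 µg/ml or between the doses under any of these alternatives. Called genes of the surrounding lists numbered 4 as reported, 3 under the replicate block, and between 0 (without control replicate 2) and 8 (without 100 µg/ml replicate 1) when 1 library was left out, an alternative chosen after seeing the data. Over all genes, 236 were called at 100 µg/ml against control, 106 under the replicate block, 22 with only the 6 libraries compared, and 31 to 539 when 1 library was left out (31 without control replicate 2 and 539 without 100 µg/ml replicate 1). Of 9 same-numbered pairs of libraries 1 had a correlation of deviations over 0.1 (range -0.09 to 0.15), so the numbers were not taken to pair the samples.

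No log2 fold change of a member at 100 µg/ml against control changed sign under any alternative. Leaving out 1 library turned the sign of some uncalled values near 0. At 10 µg/ml against control the values ran from -0.12 to 0.010 for Clec4d, -0.15 to 0.14 for Clec7a, -0.19 to 0.29 for Clec4a2, -0.090 to 0.11 for Clec12a, -0.028 to 0.054 for Clec5a and -0.15 to 0.31 for Clec4n. Between the doses they ran from -0.46 to 0.0025 for Clec4n and from -0.010 to 0.32 for Clec4e.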

Other observations

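Genes between and beside the members on chromosome 6 were mostly silent. Of 12 rows of the table in the stretch around Clec4a2 to Clec4e, 6 were tested, all of them lectins, with 4 below 0 and 2 above 0 on the log2 scale at 100 µg/ml against control. Clec4a1, Clec4a3, Clec4a2 and Clec4n were those below 0, and Clec4d and Clec4e, at the far end, those above it. Of 29 rows around Clec12a and Clec7a, 4 were tested, all below 0. Besides those 2 members they were Clec2d (log2 fold change -0.61, limma adjusted p = 0.136), a ligand of a natural killer cell receptor, and Gabarapl1 (-0.42, limma adjusted p = 0.0209), an autophagy gene that is not a lectin. The stretches were chosen after the values were seen.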
